A study of Mus musculus with 10 samples.

Results

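Long intergenic noncoding RNAs (lincRNAs) are transcripts from their own genes, set apart from protein-coding genes, that are not annotated as coding. The lincRNAs described here are the genes with the type lincRNA in GENCODE mouse release M21 that had a value of at least 2 FPKM (fragments scaled to transcript length and library size) in at least 3 of the 10 mice sequenced. They were thus chosen by their FPKM in these same mice, and their levels are given as a description. The rule kept 91 of the 1017 lincRNAs in the deposited values, and the other 926 stayed under it. The values cover 21792 genes in all.

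RNA was taken from the kidney cortex of 10 WT mice at day 28. The 4 sham mice had received PBS, and the 6 AAN mice (aristolochic acid nephropathy) had received aristolochic acid once by the intraperitoneal route, at a dose of 5 mg/kg. Each mouse gave 1 library, and the labels give no age or batch. The comparison asks how the fibrotic cortex after AAN differs from the sham cortex, and the values are of whole cortex tissue with all of its cell types.

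Unlike mRNAs, lincRNAs act as RNA or through the act of being transcribed. Some build nuclear bodies, as *Neat1* does for paraspeckles, some are cut or spliced to release small RNAs from within (microRNAs and small nucleolar RNAs, snoRNAs), and for most no function is known. Many are expressed in few cell types, so that in injured kidney their levels can follow the entry of immune cells and the loss of tubular cells. Aristolochic acid is taken up by the proximal tubule, forms DNA adducts there, and leaves tubular atrophy, inflammation and fibrosis.

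The members whose products are best known are the microRNA hosts, and their mature microRNAs show what these lincRNAs carry. The annotation places at least 1 microRNA gene within 8 of the 91 members, and RefSeq (GRCm38.p6) gave mature sequences for 7 of these hosts. The sequences most often studied from 6 of them are printed with the seed, bases 2 to 8, in capitals, and all are on the strand of their host. MiR-142 is a microRNA of blood cells, and its host *Mir142hg* lies at chr11:87755577-87757270. MiR-155, from *Mir155hg* at chr16:84703167-84715245, is induced when lymphocytes and macrophages are activated. *Mir17hg* at chr14:115042879-115046727 carries the miR-17 to miR-92a cluster, which promotes proliferation, and its miR-17 and miR-20a share a seed, as do its miR-19a and miR-19b. *6720427I07Rik* at chr13:48532905-48546500 holds let-7 microRNAs with 1 common seed, *E130102H24Rik* at chr4:101346531-101356735 holds miR-101a, and *Gm27028* at chr1:23291537-23291935 holds miR-30c.
mmu-miR-142a-5p: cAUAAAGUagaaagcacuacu
mmu-miR-142a-3p: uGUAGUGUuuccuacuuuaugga
mmu-miR-155-5p: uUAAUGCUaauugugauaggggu
mmu-miR-17-5p: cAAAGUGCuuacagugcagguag
mmu-miR-20a-5p: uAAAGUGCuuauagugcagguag
mmu-miR-18a-5p: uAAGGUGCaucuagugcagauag
mmu-miR-19a-3p: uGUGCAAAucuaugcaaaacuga
mmu-miR-19b-3p: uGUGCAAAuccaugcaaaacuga
mmu-miR-92a-3p: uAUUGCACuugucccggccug
mmu-let-7a-5p: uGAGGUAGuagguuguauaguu
mmu-let-7d-5p: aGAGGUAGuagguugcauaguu
mmu-let-7f-5p: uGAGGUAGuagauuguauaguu
mmu-miR-101a-3p: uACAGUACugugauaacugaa
mmu-miR-30c-5p: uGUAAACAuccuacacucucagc
These values are of the long host transcripts, and the mature microRNAs themselves were not measured.

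The depth, recovered from the steps between low values, was 15.8 to 17.5 M fragments in sham mice and 13.4 to 16.5 M in AAN mice. The share of summed FPKM held by mitochondrially encoded genes was 39.5% to 61.4% (sham) and 21.4% to 55.0% (AAN). All 8 leukocyte markers on the list were higher in AAN mice, with a summed level of 20.2 to 33.9 FPKM in sham mice and 263 to 942 FPKM in AAN mice, and 6 of 8 proximal tubule markers were lower (1954 to 3890 FPKM against 509 to 1999 FPKM). The mouse tagged B614 lay nearest to the sham mice among the AAN mice in both lists, with 263 FPKM of leukocyte markers and 1999 FPKM of proximal tubule markers. All 8 injured tubule markers, all 8 fibroblast markers, 5 of 7 B cell markers and 2 of 6 podocyte markers were also higher, 1 of 6 thick limb markers was lower, and none of 8 endothelial markers passed the limits. No marker was at 0 in all 4 sham mice. In such bulk tissue, fewer cells of a type and less RNA per cell cannot be told apart.

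Most of the 91 lincRNAs were low. Their mean over the 10 mice ran from 0.980 to 83.2 FPKM with a median of 3.16 FPKM, 15 had a mean of at least 10 FPKM and 62 a mean under 5 FPKM. Their exons covered 141 to 20771 bases (median 1454 bases), 27 had a single exon in their longest transcript and 44 had 1 annotated transcript. They lay on 20 chromosomes, and 41 carried Gm names and 27 Rik names, the symbols of genes without a described function. Another annotated gene overlapped 39 of them, on the opposite strand in 25. Since use of strand in the counting is not stated, fragments of such a pair cannot be told apart.

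Together the members made up 0.111% ± 0.0332 (SD, n = 4) of all FPKM in the sham group and 0.203% ± 0.0355 (SD, n = 6) in the AAN group. With mitochondrial genes left out of the total the means were 0.219% and 0.324%. Their summed level was 515 to 670 FPKM in sham mice and 682 to 1030 FPKM in AAN mice. The highest sham mouse, tagged B607, and the lowest AAN mouse, B614, thus lay close together. *AW112010* alone held 4.30 FPKM in B607 and 54.7 FPKM in B614, so the groups stayed apart only with this gene counted. The gap was so small that the same holds for *Gm10076* (69.8 FPKM in B607 and 98.9 FPKM in B614) and *AU020206* (2.24 FPKM and 17.1 FPKM). These sums describe the genes the level rule chose, of which 38 met it in AAN mice alone and 8 in sham mice alone. Over the 10 mice pooled, *AW112010*, *Gm10076* and *Malat1* had the highest means, followed by *Gm42418*, *Tmem250-ps*, *Snhg18*, *Neat1*, *AU020206*, *Gm44386* and *1810058I24Rik*. The order differed by group. In the sham mice *Malat1* (mean 55.7 FPKM), *Gm10076* (53 FPKM) and *Gm44386* (36.1 FPKM) came first, while 29 members lay above *AW112010* (4.95 FPKM), which came first in the AAN mice (135 FPKM) before *Gm10076* (93.4 FPKM) and *Malat1* (91.6 FPKM). FPKM is per length, so these levels can be compared between genes.

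**Figure D1:**
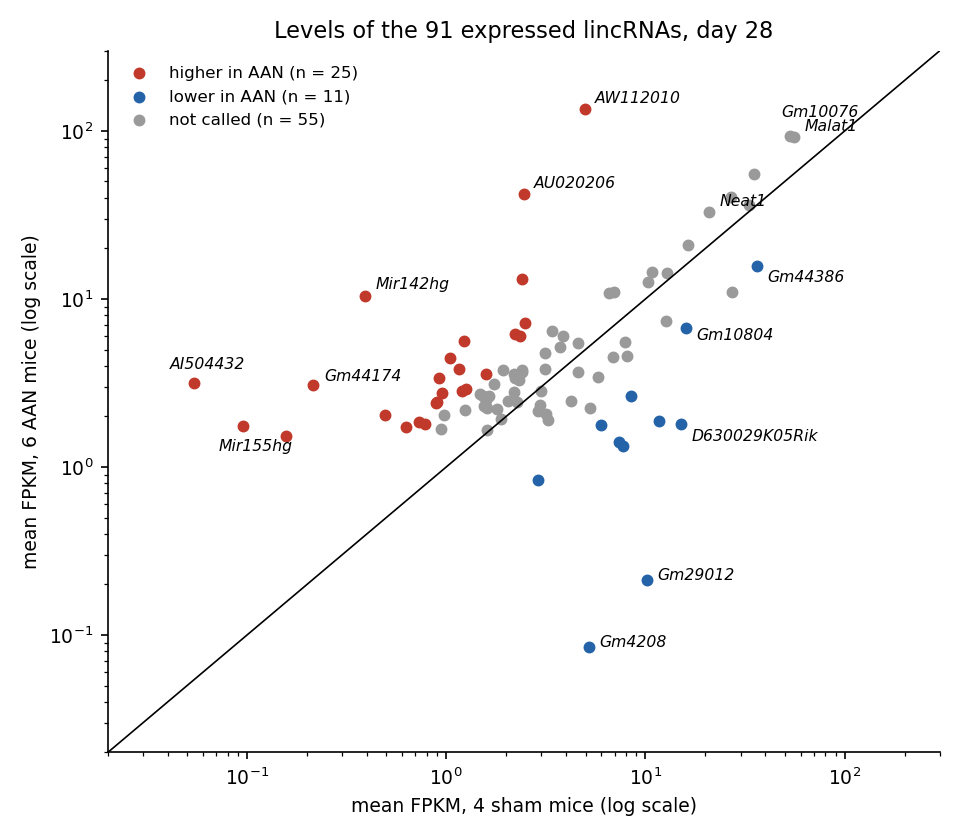
Mean level of each of the 91 lincRNAs in the 4 sham mice (x axis, FPKM, log scale) and the 6 AAN mice (y axis, FPKM, log scale), 1 point per lincRNA, coloured by whether both limits were passed, with the line of equal levels. The 25 higher lincRNAs lie above the line, of which *AW112010* and *AU020206* have the highest AAN means, and *Gm29012* and *Gm4208* lie farthest below it.

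*Gm10076*, among the most abundant, is a near-identical copy of *Rpl41*, a gene of a small ribosomal protein, so its level is uncertain. Over 383 of the 384 bases of the transcript the copy was 99.5% identical to *Rpl41*. All 78 bases of the coding part of *Rpl41* recur unchanged in *Gm10076*, from base 42 to base 119 of its transcript, and both stretches are printed to show this.
Rpl41: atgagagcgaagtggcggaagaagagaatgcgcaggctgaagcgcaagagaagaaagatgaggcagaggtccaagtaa
Gm10076: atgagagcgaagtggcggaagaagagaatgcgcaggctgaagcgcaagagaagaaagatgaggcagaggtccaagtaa
*Gm10076* had 69.8, 33.4, 42.7 and 66.2 FPKM in the sham mice and 60.3 to 115 FPKM in the AAN mice (median 99.7 FPKM), and *Rpl41* had 42.8 to 89.8 FPKM and 68.2 to 135 FPKM. Their log2 fold changes were 0.84 ± 0.26 (SE) and 0.80 ± 0.26 (SE), both under the fold limit. Of the other members, 9 shared a stretch of at least 100 bases with another gene at 95% identity or more. In *2900097C17Rik* the stretch was 51.6% of the transcript, shared with *Gm7292*.

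Log2 fold changes compared the 6 AAN mice with the 4 sham mice on log2(FPKM + 0.1), a scale that understates the change of low genes, and p-values came from limma with Benjamini-Hochberg adjustment over 17129 genes. A gene was called higher or lower where its adjusted p did not exceed 0.05 and its level changed by a factor of 2 or more either way. Of the 91 lincRNAs, 25 were higher in AAN mice, where 35.8% of all genes tested were called higher, and 11 were lower, where 3.43% of all genes tested were called lower. The shares of the members were 27.5% and 12.1%. Among the 10511 protein-coding genes that met the same level rule, 32.4% were higher and 4.19% lower, and among the 383 tested lincRNAs under the rule 35.2% and 4.18%. The median log2 fold change was 0.58 over the members and 0.75 over all genes tested, and 33 of the 91 members lay above the latter.

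How a member met the level rule bears on its call. The rule was met in at least 3 sham and at least 3 AAN mice by 43 members, in AAN mice alone by 38, in sham mice alone by 8, and only with both groups pooled by *Gm13855* and *5830454E08Rik*. Of the 43, 6 were higher (*AW112010*, *AU020206*, *Gm26532*, *Gm7932*, *AI838599* and *Snhg6*), 3 were lower (*D630024D03Rik*, *Gm10804* and *Gm44386*) and 34 were not called. Of all 7486 genes that reached 2 FPKM in at least 3 mice of each group, 18.7% were called higher and 5.04% lower. The 38 held 19 higher members and the 8 were all lower, which follows in part from the rule, since these members had to differ in level between the groups. The 19 are all higher members other than the 6 named above, *Mir142hg*, *AI504432* and *Gm44174* among them. The 8 are *Gm29012*, *Gm4208*, *D630029K05Rik*, *Gm27216*, *Gm15889*, *0610006L08Rik*, *Gm31651* and *Gm3716*.

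Scaling between mice moved the balance of calls. With the mice rescaled by the median of ratios, which brings the median log2 fold change of all genes from 0.75 to 0.066, 11 members were higher (19.1% of all genes) and 24 lower (10.5% of all genes). Quantile normalization brought that median to -0.13 and gave 6 higher members (12.9% of all genes) and 25 lower (12.3% of all genes). Bringing every mouse to the same FPKM total gave 39 higher (51.6% of all genes) and 9 lower (1.94% of all genes), and a pseudocount of 1 gave 15 higher (17% of all genes) and 11 lower (2.45% of all genes). All 11 lower members of the deposited values were also lower under the median of ratios and under quantile normalization. Both scalings moved these members further down, so keeping the calls was no test of them. The same FPKM total, which moved the median of all genes up to 1.07, gave the 9 lower members above. *AW112010*, *AU020206*, *Mir142hg*, *AI504432*, *Gm26532* and *Gm44174* were higher under both of these, and *Gm11707*, *Gm20703*, *Gm27010*, *Lsmem2* and *Mir155hg* under the median of ratios. The other 14 higher members kept a positive log2 fold change under both and were called under neither.

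**Figure D2:**
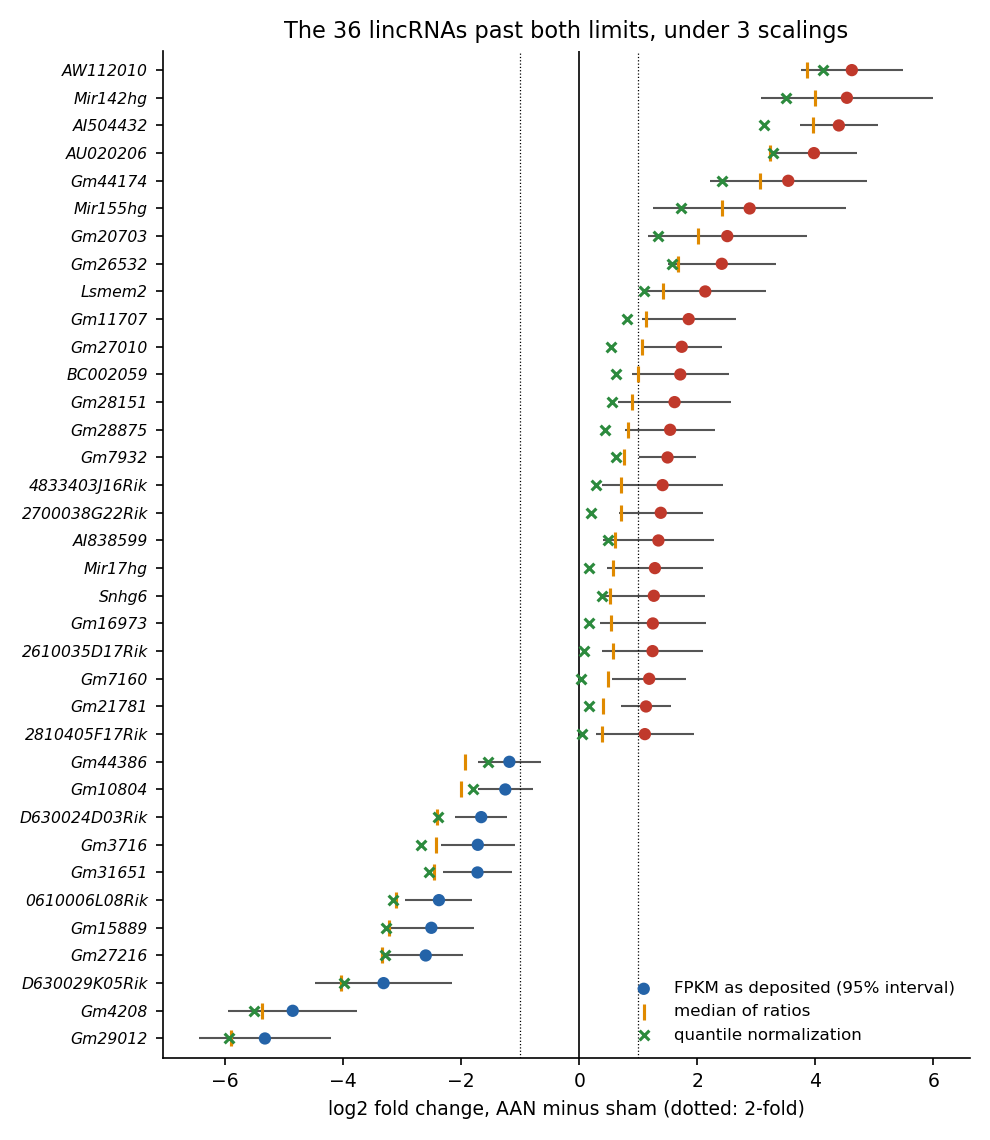
Log2 fold change (x axis, AAN minus sham) of the 25 higher (red) and 11 lower (blue) lincRNAs on the deposited FPKM with 95% intervals, after rescaling by the median of ratios (orange bars) and after quantile normalization (green crosses). Both scalings move every lincRNA to the left, so the lower ones lie farther from 0 and most of the higher ones fall within the dotted lines at 2-fold.

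The largest increases included lincRNAs known from immune cells. Those named from here on beyond the rule for named genes were chosen after their values were seen. *AW112010* (ENSMUSG00000075010, chr19:11047612-11055808), a transcript known from activated macrophages and T cells that has also been described as translated, had 4.30, 2.95, 6.15 and 6.38 FPKM in the sham mice and 54.7 to 270 FPKM in the AAN mice (median 108 FPKM). The lowest AAN mouse lay over every sham mouse by far. The log2 fold change was 4.62 ± 0.40 (SE, adjusted p = 1.71e-06, limma), 24.6-fold, and 6 of 6 AAN mice lay above the sham mice. Over all 210 ways to split the mice, the exact two-sided permutation p was 0.00476, the smallest that can be reached. In the AAN mice, *AW112010* had the highest mean of all 91 members, 135 FPKM, against 4.95 FPKM in the sham mice.

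*AU020206* (ENSMUSG00000097415, chr7:75769038-75782099) showed the same separation. Its levels were 2.24, 1.62, 3.22 and 2.71 FPKM in the sham mice and 17.1 to 66.0 FPKM in the AAN mice (median 42.5 FPKM). No AAN mouse came near the sham range. Its log2 fold change was 3.98 ± 0.33 (SE, adjusted p = 1.48e-06, limma). The lowest AAN value of both genes was that of B614, the AAN mouse with the least leukocyte marker RNA. All 8 leukocyte markers were higher together with these lincRNAs, and their part in the lincRNA values was not tested.

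*Mir142hg* (ENSMUSG00000084796), the host of miR-142 printed above, had 0.212, 0, 0.677 and 0.676 FPKM in the sham mice and 2.13 to 21.4 FPKM in the AAN mice (median 9.31 FPKM). With 1 annotated transcript, its values are whole fragments, 1, 0, 3 and 3 in the sham mice and 9 to 77 in the AAN mice. The sham level is thus close to the limit of 3 fragments that a count of 0 allows, and the groups did not overlap. AAN exceeded sham by a log2 fold change of 4.54 ± 0.67 (SE, adjusted p = 0.000125, limma). As this member met the level rule in AAN mice alone, its direction follows in part from the rule.

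*Mir155hg* had 0, 0.0440, 0.170 and 0.169 FPKM in the sham mice and 0.0521 to 2.91 FPKM in the AAN mice (median 2.07 FPKM). The AAN mouse B639 lay within the sham range and the other 5 above it. The log2 fold change was 2.89 ± 0.75 (SE, adjusted p = 0.00557, limma). *Mir17hg* had 0.452, 0.999, 1.22 and 0.892 FPKM in the sham mice and 0.775 to 3.42 FPKM in the AAN mice (median 2.58 FPKM), with B614 alone within the sham range. Its log2 fold change of 1.28 ± 0.37 (SE, adjusted p = 0.0107, limma) was 0.58 and 0.16 under the other scalings, not called.

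Not every microRNA host rose. *6720427I07Rik*, which holds the let-7 microRNAs, had a log2 fold change of 0.80 ± 0.38 (SE, adjusted p = 0.0816, limma), with 0.869 to 2.69 FPKM in the sham mice and 1.14 to 4.51 FPKM in the AAN mice. *E130102H24Rik*, with miR-101a, had 3.89 to 5.73 FPKM and 3.68 to 7.56 FPKM, a difference of 0.23 with a 95% interval of -0.23 to 0.69 on the log2 scale. *Gm27028*, with miR-30c, had 1.29 to 2.21 FPKM and 1.54 to 3.35 FPKM, a difference of 0.28 with an interval of -0.22 to 0.78. *Snhg20*, which holds miR-6516, is described with the snoRNA hosts. *Gm26532*, which overlaps *Mir24-2* on the same strand, had 0.993, 2.01, 3.52 and 3.08 FPKM in the sham mice and 4.52 to 22.2 FPKM in the AAN mice (median 13.3 FPKM), and its log2 fold change was 2.42 ± 0.42 (SE, adjusted p = 0.000429, limma).

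*AI504432* and *Gm44174* lie beside genes of T cells. *AI504432* (chr3:107039504-107054347) lies 1433 bases from *Kcna3*, a potassium channel of lymphocytes, on the same strand. It had 0.0103, 0.0113, 0.131 and 0.0653 FPKM in the sham mice and 1.57 to 4.10 FPKM in the AAN mice (median 3.11 FPKM), which is 1 to 12 and 137 to 360 fragments. Its log2 fold change was 4.40 ± 0.31 (SE, adjusted p = 4.15e-07, limma). *Gm44174* (chr6:71353035-71373284) lies 142 bases from *Cd8a*, a coreceptor of cytotoxic T cells, on the same strand, and rests on few fragments, 0, 0, 1 and 1 in the sham mice and 3 to 12 in the AAN mice. The log2 fold changes were 3.54 ± 0.61 (SE) for *Gm44174* and 3.90 ± 0.28 (SE) for *Cd8a*, whose level was 0.172 to 0.430 FPKM in the sham mice and 2.83 to 7.98 FPKM in the AAN mice. Whether fragments of the coding gene were counted to its lincRNA was not tested. Both lincRNAs met the level rule in AAN mice alone, so their direction follows in part from the rule.

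**Figure D3:**
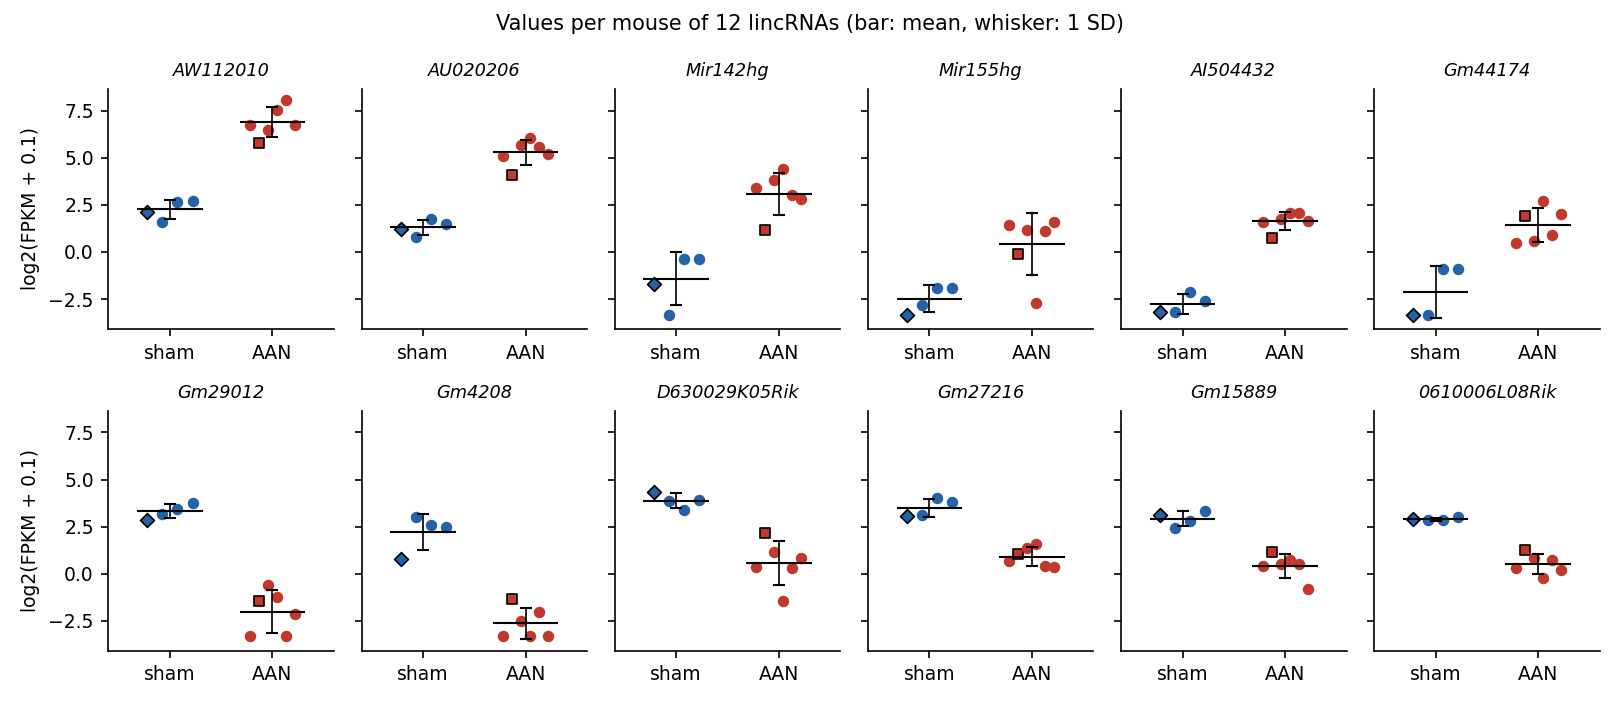
Values per mouse of 6 higher (top) and 6 lower (bottom) lincRNAs on log2(FPKM + 0.1) (y axis) in the 4 sham mice (blue) and 6 AAN mice (red), with the mean and 1 SD. Sham B607 is drawn as a diamond and AAN B614 as a square, and in every panel but that of *Mir155hg* all AAN mice lie on 1 side of all sham mice.

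The remaining higher members were of modest level and size. *Gm7932* had 1.28 to 2.96 FPKM in the sham mice and 5.06 to 7.46 FPKM in the AAN mice, with no overlap, and a log2 fold change of 1.50 ± 0.22 (SE, adjusted p = 0.000118, limma). It lies 6812 bases from *Aoc1*, the gene of an enzyme that degrades polyamines and histamine, whose log2 fold change was 4.97 ± 0.28 (SE). *4833403J16Rik*, beside *Gimap5*, a GTPase gene of lymphocytes, had a log2 fold change of 1.41 ± 0.47 (SE). *Gm20703*, *Lsmem2*, *Gm11707*, *Gm27010*, *BC002059*, *Gm28151* and *Gm28875* had log2 fold changes of 1.54 to 2.51. Of these, *Gm20703* was near 0 in the sham mice, at 0 to 0.315 FPKM, and its log2 fold change was 1.04 with a pseudocount of 1. Those of *2700038G22Rik*, *AI838599*, *Snhg6*, *Gm16973*, *2610035D17Rik*, *Gm7160*, *Gm21781* and *2810405F17Rik* were 1.11 to 1.38. In 10 of the 25 higher members the groups did not overlap.

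The 11 lower members moved apart without overlap in each case. Over all 91, AAN mice lay wholly above the sham mice in 15 members and wholly below them in 13, where 40.3% and 3.25% of all genes tested did so. Of the 15, 9 had met the level rule in AAN mice alone. Of the 13, 8 had met it in sham mice alone, and these 8 are among the 11 lower members. Both counts thus follow in part from the rule. *Gm29012* (ENSMUSG00000099669, chr1:105116454-105127366) had 7.18, 9.01, 10.9 and 13.5 FPKM in the sham mice and 0 to 0.550 FPKM in the AAN mice (median 0.201 FPKM). In fragments this was 59, 67, 84 and 104 against 0 to 4, so the transcript was hardly detectable in AAN cortex at this depth. For members near 0 in either group the size of the log2 fold change depends on the pseudocount. With 1 in place of 0.1 it was -3.19 for *Gm29012*, -2.40 for *Gm4208*, 2.84 for *Mir142hg*, 1.63 for *Gm44174*, 1.94 for *AI504432* and 1.21 for *Mir155hg*, all still past both limits. With 0.1, the log2 fold change of *Gm29012* was -5.33 ± 0.51 (SE, adjusted p = 4.02e-06, limma), and with 0.01 it was -6.70.

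*Gm4208* (ENSMUSG00000100426, chr1:62821355-62832370) was likewise near 0 in AAN mice. It had 1.64, 7.97, 5.86 and 5.43 FPKM in the sham mice, which is 25, 110, 84 and 78 fragments, and 0 to 0.293 FPKM in the AAN mice (median 0.0370 FPKM), which is 0 to 4 fragments. Its log2 fold change was -4.86 ± 0.50 (SE, adjusted p = 7.07e-06, limma). The nearest coding gene, *Nrp2*, a receptor of semaphorins and VEGF that lies 2659 bases away on the opposite strand, moved the other way (2.14 ± 0.21, SE).

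*D630029K05Rik* had 20.1, 14.7, 10.4 and 15.0 FPKM in the sham mice and 0.273 to 4.39 FPKM in the AAN mice (median 1.44 FPKM), with the highest AAN value in B614. Its log2 fold change was -3.32 ± 0.53 (SE, adjusted p = 0.000229, limma). *Gm27216* fell from 8.13 to 16.3 FPKM to 1.16 to 2.89 FPKM, *Gm15889* from 5.37 to 9.85 FPKM to 0.474 to 2.13 FPKM, and *0610006L08Rik* from 7.03 to 7.91 FPKM to 0.749 to 2.32 FPKM. Their log2 fold changes were -2.60 ± 0.29 (SE), -2.51 ± 0.33 (SE) and -2.38 ± 0.26 (SE). *0610006L08Rik* was the most even of the lower members in the sham mice, with an SD of 0.398 FPKM around a mean of 7.33 FPKM. *Gm31651* and *Gm3716* both had a log2 fold change of -1.72, and that of *D630024D03Rik* was -1.66 ± 0.20 (SE).

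*Gm44386* and *Gm10804* were the most abundant of the lower members. *Gm44386* had 28.0, 52.4, 35.3 and 28.8 FPKM in the sham mice and 11.7 to 20.5 FPKM in the AAN mice (median 15.7 FPKM). The log2 fold change was -1.18 ± 0.24 (SE, adjusted p = 0.00129, limma), and -0.99 without the sham mouse B634, which is under the fold limit. *Gm10804* (chr2:93452819-93469871) overlaps *Cd82*, a tetraspanin gene, on the opposite strand. It had 15.6, 12, 17.9 and 18.3 FPKM in the sham mice and 4.67 to 9.57 FPKM in the AAN mice (median 6.57 FPKM), and fell by 1.25 on the log2 scale (SE 0.21) while *Cd82* rose by 1.39 (SE 0.34). Proximal tubule marker RNA fell with these members, and its part in their values was not tested.

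Promoter sequence could be read for some of the members. RefSeq promoters (GRCm38.p6, 250 bases before to 50 after the start) matched 51 of the 91 members by symbol, and 40 of them began within 500 bases of the GENCODE start. The median number of CpG in this window was 5 in the 8 lower members, 11 in the 8 higher and 24 in the 24 not called, beside 7 over all 32851 promoters, given as a description with no test. The binding motif of STAT factors, TTCNNNGAA, which reads the same on both strands, was found in 6 of the 40 (3 lower, 2 higher, 1 not called) and in 8.30% of all promoters. TATAAA, searched on the strand of the gene, was found in 4 of the 40 and in 8.32% of all promoters. The letters CAAAGTCCA (for HNF4) and GAGGAAGT (for PU.1), searched on both strands, were found in none of the 40 and in 0.475% and 3.20% of all promoters. The interferon-stimulated response element and the HNF1 motif were also found in none of the 40, and in 3.44% and 0.399% of all promoters. The promoters of 3 lower members with the STAT motif and of the higher member *Gm7932* are printed with both motifs in capitals, as examples of low CpG content and of the position of the matches. They lie at chr1:105116203-105116502 (plus strand), chr7:74853761-74854060 (minus strand), chr2:93452569-93452868 (plus strand) and chr6:48860079-48860378 (plus strand). A match is a description of the letters and not a bound site.
Gm29012: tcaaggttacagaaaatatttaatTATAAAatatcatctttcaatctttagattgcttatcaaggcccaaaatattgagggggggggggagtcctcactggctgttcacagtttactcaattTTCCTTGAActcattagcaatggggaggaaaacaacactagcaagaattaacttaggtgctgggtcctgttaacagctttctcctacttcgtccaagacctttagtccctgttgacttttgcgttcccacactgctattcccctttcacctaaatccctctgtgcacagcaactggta
0610006L08Rik: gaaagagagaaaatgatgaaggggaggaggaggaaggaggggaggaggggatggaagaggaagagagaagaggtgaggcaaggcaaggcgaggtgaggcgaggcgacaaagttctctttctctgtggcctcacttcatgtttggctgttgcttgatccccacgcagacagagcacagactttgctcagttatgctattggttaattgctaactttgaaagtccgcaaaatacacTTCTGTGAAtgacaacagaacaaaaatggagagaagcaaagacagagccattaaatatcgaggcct
Gm10804: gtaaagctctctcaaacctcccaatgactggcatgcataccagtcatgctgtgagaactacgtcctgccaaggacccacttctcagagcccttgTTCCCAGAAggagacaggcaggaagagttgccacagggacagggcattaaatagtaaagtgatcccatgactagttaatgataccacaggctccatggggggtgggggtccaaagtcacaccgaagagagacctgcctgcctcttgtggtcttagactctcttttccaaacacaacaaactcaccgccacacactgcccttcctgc
Gm7932: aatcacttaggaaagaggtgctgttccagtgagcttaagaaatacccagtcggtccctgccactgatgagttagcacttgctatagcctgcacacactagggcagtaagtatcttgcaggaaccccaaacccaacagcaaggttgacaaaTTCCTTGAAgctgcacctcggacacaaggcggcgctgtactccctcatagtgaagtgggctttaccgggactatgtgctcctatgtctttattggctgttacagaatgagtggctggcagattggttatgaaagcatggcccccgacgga

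Several of the best-known lincRNAs did not pass both limits. *Malat1*, an abundant nuclear RNA that gathers in speckles with splicing factors, had 86.5, 30.3, 53.9 and 52.3 FPKM in the sham mice and 80.1 to 114 FPKM in the AAN mice (median 88.4 FPKM). The sham mouse B607 alone lay within the AAN range. The log2 fold change of 0.80 ± 0.25 (SE, adjusted p = 0.0145, limma) was under the fold limit and close to the median of all genes, and it was 1.04 without B607, which is past it.

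*Neat1*, the scaffold of paraspeckles and a target of p53, had 7.19, 21.4, 39.3 and 15.4 FPKM in the sham mice and 0.819 to 56.5 FPKM in the AAN mice (median 33.0 FPKM). The value of 0.819 FPKM, the lowest of all 10, was that of B614. With all mice the log2 fold change was 0.20 ± 1.0 (SE, adjusted p = 0.874, limma), and below 0 under the median of ratios and quantile normalization. Without B614 it was 1.09 (adjusted p = 0.0496, limma), past both limits, and without both B614 and B607 it was 0.66. *Tmem250-ps* differed little between mice, with 28.3 to 37.8 FPKM in the sham mice, 31.2 to 38.1 FPKM in the AAN mice and a difference of 0.13 with a 95% interval of -0.17 to 0.43 on the log2 scale, which turned to -0.63 under the median of ratios. *2900097C17Rik*, the transcript known as Norad that binds Pumilio proteins, had 9.71 FPKM in the sham mouse B607 and 1.44 to 2.28 FPKM in the others, and 15.0 FPKM in B614 against 1.91 to 4.12 FPKM in the other AAN mice.

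The annotation places a snoRNA within 5 members, of which *Snhg6* and *2700038G22Rik*, which holds *Snord93*, were higher. *2700038G22Rik* had 0.342 to 1.14 FPKM in the sham mice and 0.922 to 2.31 FPKM in the AAN mice, with overlap, and a log2 fold change of 1.38 ± 0.33 (SE, adjusted p = 0.00322, limma). Members on the list of snoRNA hosts were *Snhg6*, *Snhg12*, *Snhg18*, *Snhg20*, *Epb41l4aos* and *1700020I14Rik*. The last of these is the lincRNA known as Cyrano, within which the annotation places no snoRNA. *Snhg6* was higher, with 1.28, 2.63, 3.34 and 2.17 FPKM in the sham mice and 1.75 to 8.07 FPKM in the AAN mice (median 6.49 FPKM), a log2 fold change of 1.26 ± 0.40 (SE, adjusted p = 0.0162, limma). B614 held the lowest AAN value, and the other 5 AAN mice lay above every sham mouse. *Snhg18*, the most abundant of the hosts, had 18.9 to 30.9 FPKM in the sham mice and 20.0 to 52.8 FPKM in the AAN mice, and *Epb41l4aos* 5.06 to 9.47 FPKM and 4.17 to 13.5 FPKM. The log2 fold changes of *Snhg18*, *Epb41l4aos*, *Snhg12* and *Snhg20* were 0.55 to 0.85, with adjusted p-values of 0.0799 to 0.124 (limma), and under the median of ratios all but that of *Snhg20* were below 0. *1700020I14Rik* had 6.30 to 6.97 FPKM in the sham mice and 9.0 to 13.5 FPKM in the AAN mice without overlap, and its log2 fold change of 0.70 ± 0.15 (SE, adjusted p = 0.00159, limma) was under the fold limit, and -0.056 under the median of ratios.

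A pattern tied to 2 mice ran through these values. The sham mouse B607 and the AAN mouse B614 were both the lowest of their group in 27 members, among them *Neat1*, *Snhg6*, *Snhg12*, *Snhg18*, *Snhg20*, *Epb41l4aos* and *Mir17hg*. In 9 members, among them *2900097C17Rik*, *Gm12678*, *Gm10845* and *Gm13855*, both were the highest. These 36 members are 39.6% of the 91. Of the 24 pairs of a sham and an AAN mouse, the next pair shared an end in 20 members, and the median pair in 5. Over all 17129 genes tested, B607 and B614 were also the pair that most often shared an end, in 33.0%. The balance of the 2 ends differed there. Both mice were the highest in 3430 of all genes and the lowest in 2221, while in the members the lowest end was the more frequent. *Gm12678* shows how far such values can stand apart, with 56.8 FPKM in B607 and 10.3 to 27.9 FPKM in the other sham mice, and 26.5 FPKM in B614 and 2.61 to 11.8 FPKM in the other AAN mice. Without both mice, 29 members were higher and 12 lower, and these held all 25 and all 11 of the calls with every mouse. The shares of all genes called without both mice are not given here. Marker levels moved with B614. Its summed thick limb markers (2007 FPKM) and podocyte markers (131 FPKM) lay above those of every other mouse, with 203 to 531 FPKM and 50.4 to 93.6 FPKM in the other AAN mice and 472 to 1710 FPKM and 44.3 to 86.0 FPKM in the sham mice. B607 had 1430 FPKM of thick limb markers, and the highest sham levels of podocyte (86.0 FPKM) and proximal tubule markers (3890 FPKM). Fibroblast markers were the lowest of each group in B607 (33.1 FPKM) and B614 (143 FPKM). These mice also had the lowest FPKM total of their groups, 439662 in B607 and 388126 in B614, though AAN B642 was close with 389373. The labels give nothing that sets both mice apart, and the part of these markers and totals in the pattern was not tested.

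**Figure D4:**
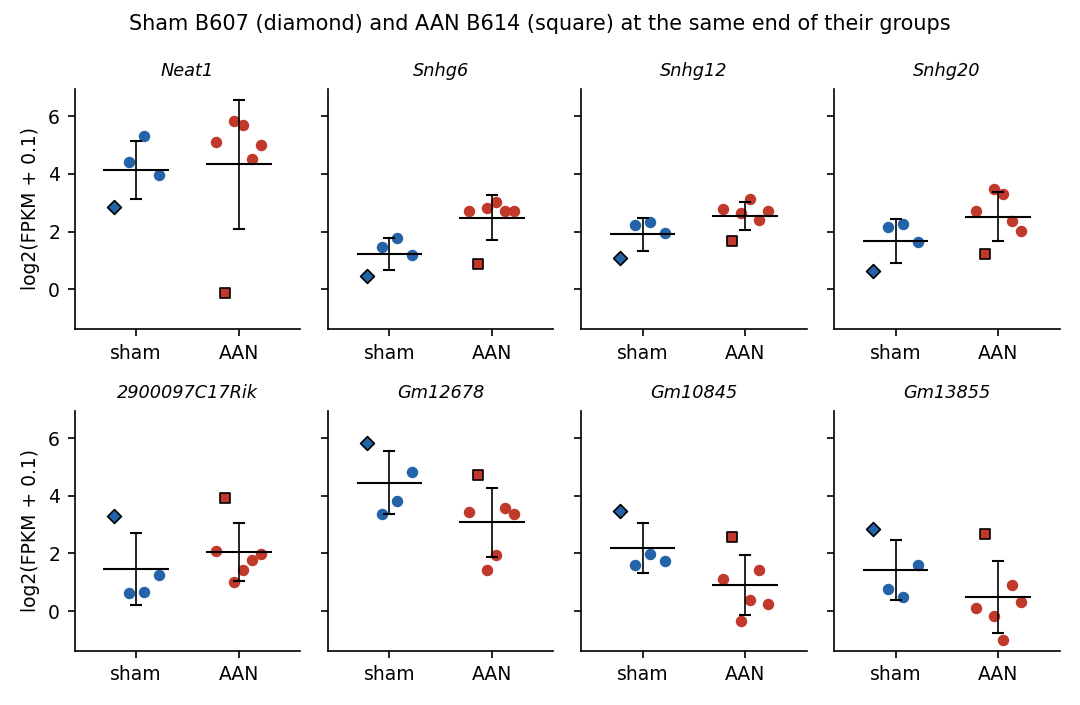
Values per mouse on log2(FPKM + 0.1) (y axis) of 8 lincRNAs in the sham (blue) and AAN (red) mice, with the mean and 1 SD. Sham B607 (diamond) and AAN B614 (square) are the lowest of their groups in the top row and the highest in the bottom row.

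B614 was also the AAN mouse nearest to the sham mice in 27 of the 36 members called. The same count over all genes called was not made, so it is not read as a trait of the members. Without B614 29 members were higher, with *6720427I07Rik*, *Gm29650*, *Neat1* and *Snhg20* added, and 14 were lower, with *Gm10845*, *Gm12678* and *Gm13855* added. The shares of all genes called without this mouse are not given here.

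By list, counts are read beside the 35.8% of all genes tested that were higher and the 3.43% that were lower. The 3 immune cell lincRNAs among the members (*AW112010*, *Mir142hg* and *Mir155hg*) were all higher, but *Mir142hg* and *Mir155hg* met the level rule in AAN mice alone, so their direction follows in part from the rule. Of the 8 tested genes of that list, whatever their gene type or level, 7 were higher and 1, *Mirt2*, was lower. The 3 members on the list of microRNA hosts were higher and had likewise met the rule in AAN mice alone, and of the 8 tested genes of that list 6 were higher. Of the 6 members on the snoRNA host list 1 was higher, and of its 17 tested genes 6 were higher and none lower, a share near that of all genes. None of the 3 nuclear or housekeeping members (*Malat1*, *Neat1* and *2900097C17Rik*) was called, and of that list's 10 tested genes 2 were higher. *Neat1* was the only member on the list linked to p53 or DNA damage, of whose 5 tested genes 2 were higher. No imprinted lincRNA met the level rule, and of the 3 tested genes of that list 1 was higher. *Gm42418* and *Gm26917*, which lie on ribosomal RNA sequence, had log2 fold changes of 0.74 ± 0.26 (SE) and 0.46 ± 0.29 (SE) and were not called. Without the sham mouse B607 the value of *Gm42418* was 1.05, past both limits.

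The nearest protein-coding gene was tested for 81 of the members, at a median gap of 4460 bases. Across these 81 pairs the log2 fold changes of lincRNA and neighbour had a Pearson correlation of 0.27 and a Spearman correlation of 0.21, a description over pairs that share the same 10 libraries. Among them 22 lincRNAs and 38 neighbours were higher, where 35.8% of all genes tested were called higher, and both were higher in 14 pairs. No neighbour was called lower, so no pair could be lower in both, and of the 9 lower lincRNAs 5 had a higher neighbour. Pairs of both kinds are read beside these shares, and a link within pairs was not tested. Of these 5 pairs, 3 had a gap of more than 10 kb. *Klf3*, 192687 bases from *Gm3716*, and *Hmgn3*, 93795 bases from *Gm27216*, were higher, as were the closer *Nrp2* and *Cd82*.

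Some members were not called beside a neighbour that was much higher. *Gm12121* had 5.93 to 16.4 FPKM in the sham mice and 6.27 to 20.5 FPKM in the AAN mice, a difference of 0.28 with a 95% interval of -0.44 to 1.0 on the log2 scale, while *Lcp2*, a signalling gene of leukocytes 49531 bases away, was higher by 4.35 ± 0.26 (SE). *4632415L05Rik* had a log2 fold change of 0.61 ± 0.19 (SE), with *Cp*, the gene of ceruloplasmin 58069 bases away, at 4.54. For *Snhg18* and *Sema5a*, whose starts lie 148 bases apart on opposite strands, the log2 fold changes were 0.55 ± 0.26 (SE) and 2.16 ± 0.25 (SE).

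**Figure D5:**
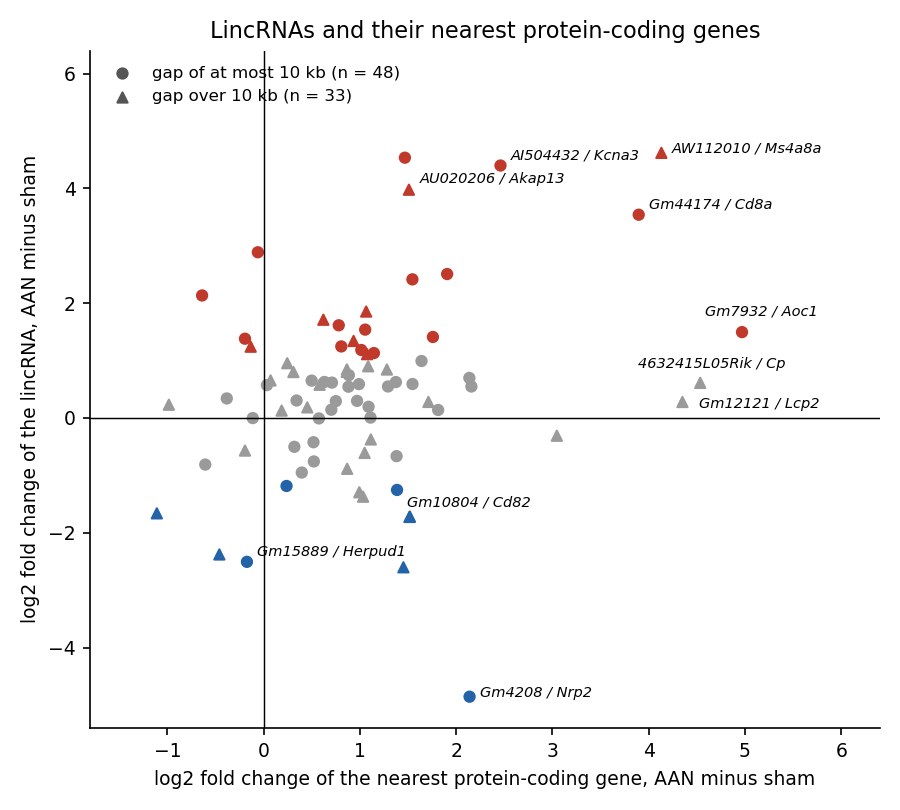
Log2 fold change of each lincRNA (y axis, AAN minus sham) and of its nearest protein-coding gene (x axis, AAN minus sham) for 48 pairs with a gap of at most 10 kb (circles) and 33 with a larger gap (triangles), red for higher, blue for lower and grey for lincRNAs not called. Lower lincRNAs have neighbours on both sides of 0, and *Gm4208* beside *Nrp2* lies farthest apart.

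Divergent pairs, in which lincRNA and coding gene start within 2 kb of each other and are read away from each other, numbered 14. Their log2 fold changes had a Pearson correlation of 0.59 and a Spearman correlation of 0.52. In 1 pair, *Gm7160* and *Zcchc2*, both were past the limits, with log2 fold changes of 1.19 ± 0.29 (SE) and 1.01 ± 0.29 (SE). *Lhx1os*, divergent from *Lhx1*, the gene of a transcription factor of kidney development, had 7.04 to 10.3 FPKM in the sham mice and 3.51 to 6.31 FPKM in the AAN mice. Its log2 fold change was -0.81 ± 0.19 (SE, adjusted p = 0.00293, limma), beside -0.61 ± 0.31 (SE) for *Lhx1*. *Fam120aos* also lay without overlap, at 10.04 to 15.2 FPKM and 6.34 to 8.23 FPKM (-0.76 ± 0.15, SE). Both stayed under the fold limit on the deposited values and were called lower under the median of ratios and quantile normalization.

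Near the level limit, the members *Gm37494*, *2700038G22Rik* and *Gm45495* had a third-highest value of 2.0, 2.03 and 2.05 FPKM, and the lincRNAs *4632404H12Rik*, *Gm26779* and *Gm38910* just missed it with 1.98, 1.97 and 1.96 FPKM.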

How the data were processed

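The paired-end libraries of 10 mice were sequenced on the Illumina HiSeq Xten, and the authors removed rRNA, adapters, and reads that were short or of low quality, aligned what remained to GRCm38 by Hisat2 2.0.4 and estimated FPKM per known gene by Stringtie 1.3.0. The values deposited are these FPKM, 1 per gene and mouse, with no counts. The annotation release, the use of strand and the sharing of fragments between copies are not given in the sources used here. The authors tested with edgeR, which needs counts, so limma 3.58.1 in R 4.3.3 (lmFit, eBayes with trend and robust) was used on log2(FPKM + 0.1) for genes whose mean reached 0.1 FPKM, without scaling between mice. The adjusted p limit of 0.05 and the fold limits of 2 and 0.5 are those of the methods of the study. The study used littermate controls in its animal experiments, but no label ties these mice to litters or batches, so p-values measure the spread between these mice.

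The members, lists and tests were chosen with earlier results of these data known. Named genes were the 10 with the highest mean, up to 10 largest increases and decreases among called members without overlap between groups and with a mean of at least 5 FPKM where higher, every member of a list, 3 members and 3 other lincRNAs beside the level limit, divergent pairs with both genes called, and the 3 most abundant members with an adjusted p above 0.05.

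Gene types and positions came from GENCODE mouse release 21, which held 21665 of the 21792 genes, and near-identical copies from blastn 2.17.0. Depth came from genes with 1 transcript, in which 95.4% to 97.4% of low values were whole fragments within 0.05. A value of 0 allows up to 3 fragments, and such limits cover counting error only. On simulated data (15187 genes tested) the fit recovered 80.4% of 179 genes with a set change and made 8 wrong calls. The simulation drew each gene independently and changed 200 of 17129 genes, as many up as down. In the data 35.8% of all genes tested were called higher, so these rates need not hold for them. Other steps ran in Python 3.11.15 with pandas 2.3.3, numpy 2.4.6 and scipy 1.17.1, and figures in matplotlib 3.10.9. The alternatives were other pseudocounts, filters, scalings, member rules and sets of mice. Tests written for counts were not run.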

Additional observations from a re-analysis of the deposited data

Results flagged for a closer look

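In 7 of 72 groups of values (the 35 named lincRNAs and the members' share of all FPKM, each in sham and in AAN mice) 1 mouse lay far from the others by Dixon's limit, where chance flags about 1 in 20 groups, or 3.6 of 72. AAN B614 stood low in *Epb41l4aos* (4.17 FPKM, the others 10.4 to 13.5 FPKM) and in *Snhg6* (1.75 FPKM, the others 6.48 to 8.07 FPKM), and high in *2900097C17Rik* (15.0 FPKM, the others 1.91 to 4.12 FPKM). Sham B607 stood high in *2900097C17Rik* (9.71 FPKM, the others 1.44 to 2.28 FPKM) and in *Gm42418* (62.2 FPKM, the others 24.4 to 28.1 FPKM). Sham B634 stood low in *Gm31651* (3.94 FPKM, the others 6.50 to 6.83 FPKM). AAN B639 stood low in *Tmem250-ps* (31.2 FPKM, the others 35.8 to 38.1 FPKM).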

How the results depend on the processing

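No paired analysis was possible because sham and AAN mice share no animal or tag. Of the values recomputed for the 35 named lincRNAs, 664 kept direction and side of the limits, 22 gained the call, 19 lost it and 30 changed sign. The 25 higher members became 11 (median of ratios), 6 (quantile), 15 (pseudocount 1, 17% of all genes), 39 (same FPKM total, 51.6% of all genes) and 39 (no fold limit), and the 11 lower became 24 and 25 under the first 2. A rule of 1 FPKM, with 164 members, gave 54 higher and 18 lower, and one of 5 FPKM, with 39 members, gave 8 and 10. The 52 members that no other annotated gene overlaps gave 11 higher and 7 lower, and the 44 with 1 transcript 14 and 4. On the deposited values 35.8% of all genes tested were higher and 3.43% lower. For the 43 passing in both groups, 6 higher became 3, 3, 12 and 13 (median of ratios, quantile, same total, no fold limit), and 3 lower became 15, 15, 1 and 6. Of the 7486 genes at that level in both groups, 18.7% were higher and 5.04% lower on the deposited values. Their shares under the other settings are not given here, nor are those of all genes with no fold limit or with mice left out. Leaving out 1 mouse gave 23 to 29 higher, 11 to 14 lower, and 3 to 5 lower among the 43, with 5 also without B634 and B614. Leaving out 2 mice was chosen after seeing the data. Without mitochondrial genes the shares were 0.219% and 0.324%.

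Log2 fold changes that changed sign under the median of ratios were *Gm42418* -0.023, *Tmem250-ps* -0.63, *Snhg18* -0.21, *Neat1* -0.56, *1810058I24Rik* -0.42, *Gm26917* -0.30, *Epb41l4aos* -0.16, *1700020I14Rik* -0.056, *Snhg12* -0.096 and *2900097C17Rik* -0.16. Under quantile normalization they were *Tmem250-ps* -0.17, *Neat1* -0.21, *1810058I24Rik* -0.11, *Gm26917* -0.11, *Epb41l4aos* -0.057, *Snhg12* -0.15, *2900097C17Rik* -0.30 and *Gm37494* -0.12. *Neat1* was -0.019 in mice with B tags and -0.23 to 1.09 without 1 mouse. *2900097C17Rik* was -0.076 without B634 and B614. *Gm45495*, near 0, was 0.011 (pseudocount 1), 0.34 (same total) and -0.099 to 0.15 without 1 mouse. Beyond the scaling itself, the cause was not tested. A level of 0 to 4 fragments in 1 of the groups limits *Mir142hg*, *Gm44174*, *Gm29012* and *Gm4208*. Sham levels near 0 limit *Gm20703* and *Mir155hg* in the same way.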
